A study of Mus musculus with 19 samples.

Results

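The receptor chain genes described here are Il2ra, Il2rb, Il2rg, Il4ra, Il9r, Il15ra and Il21r, which encode the common gamma chain and chains of the receptors that pair with it. They were chosen by gene symbol, with earlier results of these data known, and they are 7 of the 22878 gene symbols in the RNA tables. Each symbol is represented by its transcript of highest summed reads in the 16 RNA libraries. All 7 passed the filter on low values in both experiments.

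The study sequenced RNA from mouse T helper 2 (Th2) cultures, CD4 T cells grown under conditions that favour secretion of interleukins 4, 5 and 13, after deletion of the transcription factor gene Bcl11b or Gata3. In the Bcl11b experiment, naive CD4 T cells carried Bcl11b fl/fl and CreERT2, a Cre recombinase that 4-hydroxytamoxifen (4-OHT) activates. Late Bcl11b KO cells had 4 days of Th2 culture, 1 day of rest in IL-2 and 4 more days of Th2 culture with 4-OHT in that second period, and late Bcl11b WT cells had the same culture without 4-OHT. Early Bcl11b KO cells had 4 days of Th2 culture with 4-OHT, and early Bcl11b WT cells had 4 days without it. All 4 Bcl11b groups therefore carried the floxed alleles and CreERT2, and the drug and the deletion cannot be told apart. The promoter that drives CreERT2 is not stated. The Gata3 experiment had late Gata3 KO, late Gata3 WT, early Gata3 KO and early Gata3 WT groups. For these, the sources used here state neither the alleles nor the culture. Each of the 8 groups had 2 libraries. Nothing states that the 2 derive from separate cultures or animals, and the p-values then reflect only the spread of these libraries, which may be technical. Binding of Bcl11b and GATA3 was measured by chromatin immunoprecipitation (ChIP) in late WT Th2 cells, beside an input library, with 1 library each.

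The common gamma chain, encoded by Il2rg, is shared by the receptors of IL-2, IL-4, IL-7, IL-9, IL-15 and IL-21. IL-2 and IL-15 also use the beta chain Il2rb, and each has a private alpha chain that raises affinity, Il2ra (CD25) for IL-2 and Il15ra for IL-15. Il4ra pairs with the gamma chain to bind IL-4 and with Il13ra1 to bind IL-13, while Il9r and Il21r are the private chains for IL-9 and IL-21. Bound receptors activate the kinases JAK1 and JAK3, which phosphorylate STAT5 downstream of IL-2, IL-9 and IL-15, STAT6 downstream of IL-4 and STAT3 downstream of IL-21. In Th2 cells IL-4 acting through STAT6 raises Gata3, and IL-2 acting through STAT5 supports growth and cytokine gene expression.

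Promoters of 3 of the genes are shown because their windows of 250 bases upstream of the start lay wholly inside deposited GATA3 peaks, and because Il9r and Il2ra were the members lower in Gata3 KO cells. The sequences are from RefSeq on GRCm38.p6, the patched form of the mm10 assembly. The motif letters AGATAA or AGATAG, and also TGATAA or TGATAG, were searched on both strands, and matches are in capitals. The Il9r window is chr11:32200280-32200529 on the minus strand, the Il2ra window chr2:11642542-11642791 on the plus strand, and the Il4ra window chr7:125552021-125552270 on the plus strand.
Il9r: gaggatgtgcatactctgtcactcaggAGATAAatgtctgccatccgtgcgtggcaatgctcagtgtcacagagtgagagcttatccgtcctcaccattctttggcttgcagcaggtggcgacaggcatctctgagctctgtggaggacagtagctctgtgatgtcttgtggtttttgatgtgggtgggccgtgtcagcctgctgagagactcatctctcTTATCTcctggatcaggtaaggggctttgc
Il2ra: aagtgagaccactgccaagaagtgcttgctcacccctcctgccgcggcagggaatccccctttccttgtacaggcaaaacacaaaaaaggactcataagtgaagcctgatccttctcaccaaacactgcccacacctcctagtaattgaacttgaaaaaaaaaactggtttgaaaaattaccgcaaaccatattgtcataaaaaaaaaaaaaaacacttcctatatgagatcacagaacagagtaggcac
Il4ra: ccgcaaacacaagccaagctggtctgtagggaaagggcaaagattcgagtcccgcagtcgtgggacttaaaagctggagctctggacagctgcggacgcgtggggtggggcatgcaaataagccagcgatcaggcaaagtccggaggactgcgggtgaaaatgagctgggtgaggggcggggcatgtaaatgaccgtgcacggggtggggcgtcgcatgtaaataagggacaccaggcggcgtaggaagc
The Il9r window held 2 matches, which began 223 and 30 bases upstream of the start, and the Il2ra and Il4ra windows held 0. At least 1 match stood in 26.5% of all 32544 promoter windows of this length, and in 16.7% of the 9037 windows of genes tested here. A match is a description of letters and not a site, and the absence of one says only that these letters are not in this window. RefSeq windows were at hand for 6 of the 7 members, all but Il2rb.

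Reads assigned to genes ranged between 4687559 and 14577958 per library. The early Bcl11b WT libraries stood apart. Their gene reads were 20.7% and 16.9% of the library total behind the deposited RPKM, against 40.7% to 60.3% in the other libraries, and they had 3.77 and 4.86 reads per kb over olfactory and vomeronasal receptor transcripts, against at most 0.507 elsewhere. Every comparison against early Bcl11b WT rests on them, no such comparison can be made without them, and their part in those results was not tested. Late and early Gata3 WT libraries with the same number were closer to each other (chi-square per gene 4.26 and 2.52) than the 2 libraries within the late group (13.5) or the early group (12.8). The targeted transcripts were still present. Bcl11b had 66.5 and 54.1 CPM in early KO against 126 and 128 CPM in early WT (log2 -1.08, adjusted p = 0.0232). That call was lost without early Bcl11b WT library 1 (-1.09) or early Bcl11b KO library 2 (-0.98), and the value turned to 0.0469 on log2(deposited RPKM + 1). On that scale it lay below the median of all genes in this comparison, which is given with the JAK and STAT genes. It had 75.6 and 137 CPM in late KO against 139.7 and 181 CPM in late WT, where the difference did not pass the test (adjusted p = 0.421). Gata3 had 425 and 419 CPM in early KO against 1178 and 1279.5 CPM in early WT (log2 -1.54, adjusted p = 5.80e-06), and 1090.4 and 954 CPM in late KO against 1382 and 1327 CPM in late WT (log2 -0.41, adjusted p = 0.0361). That late call was lost without either early Gata3 KO or either late Gata3 WT library or late Gata3 KO library 2 (-0.44 to -0.31). These reads cover the whole transcript, and the labels do not say which part was deleted. T cell markers summed to between 2393 and 6256 CPM per library. Th2 markers summed to 495 to 502 CPM in early Gata3 KO against 3818 to 3823 CPM in early Gata3 WT, and to 1355 to 1554 CPM in late Gata3 KO against 3918 to 4140 CPM in late Gata3 WT. CPM here are counts scaled to a common library size with TMM factors, computed within each experiment, so levels set across the experiments were scaled apart.

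Several of the receptor chain genes changed with loss of Gata3. In the early cultures 4 of 7 were higher and 1, Il2ra, lower in Gata3 KO than in Gata3 WT by edgeR's quasi-likelihood test at a Benjamini-Hochberg adjusted p below 0.05, where 30.7% of the 10601 genes tested were called. Among late cultures 3 were higher and 1, again Il2ra, lower, with 14% of genes called. Il9r is left out of these counts: it was called lower at both stages, but it passed the filter on low values through the WT libraries alone. In the Bcl11b experiment 2 of 7 were higher and 0 lower in early KO, where 21.0% of the 10870 genes tested were called, a count close to that share. In late Bcl11b KO 0 of 7 were called, with 2.22% of genes called. Of the 7, 1 had an unadjusted p below 0.05 there, DESeq2 called 1 and limma 0. The median log2 fold change of the 7 genes, Il9r included, was 0.50 in early and 0.26 in late Gata3 KO. It was 0.44 in early and 0.27 in late Bcl11b KO, while the medians of all genes tested lay between -0.02 and 0.03.

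**Figure D1:**
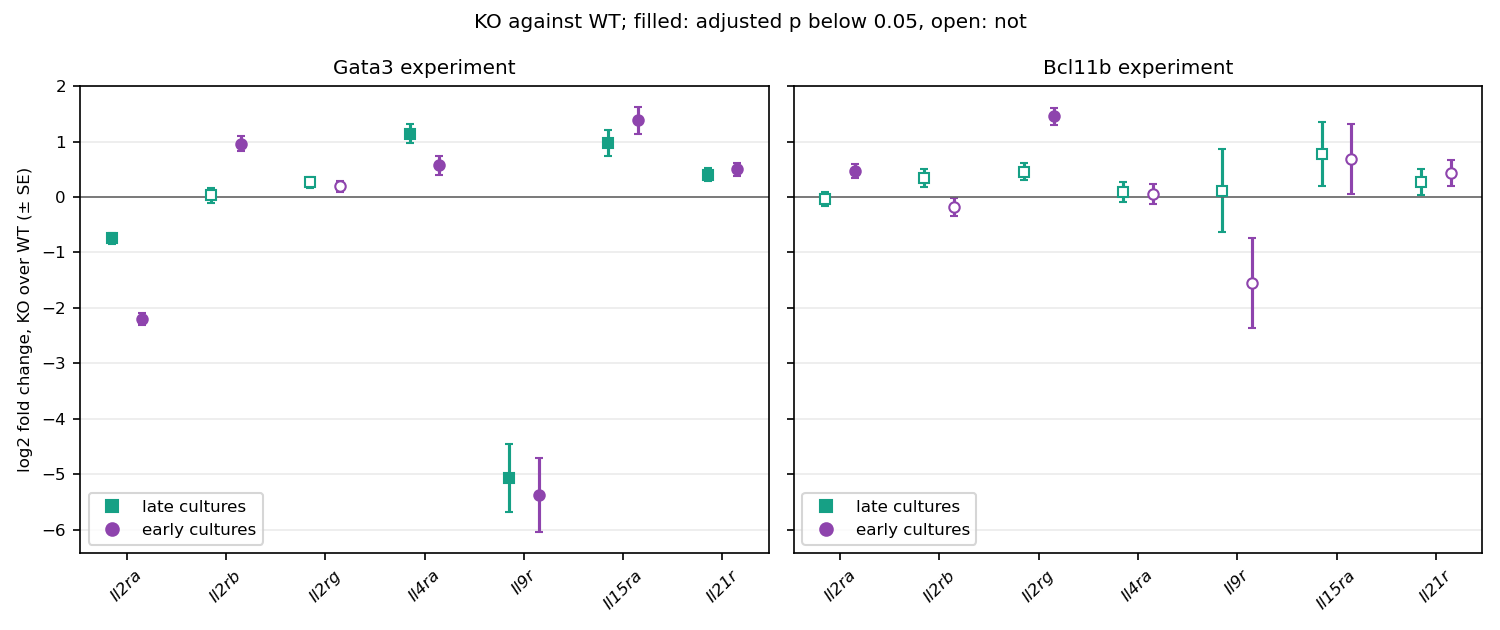
Log2 fold change of KO over WT with its standard error (vertical axis) for each of the 7 receptor chain genes (horizontal axis), in the Bcl11b and the Gata3 experiment and for late and early cultures. Filled symbols have an adjusted p below 0.05. Il2ra and Il9r lie below 0 in Gata3 KO at both stages, Il4ra, Il15ra and Il21r lie above 0, and Il2rg stands at 1.45 in early Bcl11b KO.

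Il2ra encodes CD25, the alpha chain that makes the IL-2 receptor high-affinity. It was lower in Gata3 KO at both stages, and by less in the late cultures. Early Gata3 KO libraries had 749 and 688 CPM, against 3289 and 3332 CPM in early Gata3 WT, a log2 fold change of -2.20 ± 0.11 (SE; adjusted p = 5.77e-07). Late Gata3 KO libraries had 2007 and 1868 CPM, against 3243 and 3267 CPM in late Gata3 WT (log2 -0.75 ± 0.10, adjusted p = 0.00119). The groups did not overlap at either stage, and the 4 WT libraries lay between 3243 and 3332 CPM. Il2ra was thus higher in late than in early Gata3 KO cells (log2 1.43 ± 0.10, adjusted p = 1.36e-05), and the KO effect differed between stages by 1.45 ± 0.15 on the log2 scale (late minus early, adjusted p = 0.000257). In the Bcl11b experiment the larger differences were between stages. Late Bcl11b KO libraries had 16603 and 14556 CPM and late Bcl11b WT libraries 16732 and 15203 CPM, which overlapped (log2 -0.04 ± 0.13, adjusted p = 0.984). Early Bcl11b KO libraries had 5264 and 5492 CPM, against 3763 and 3967 CPM in early Bcl11b WT (log2 0.48 ± 0.13, adjusted p = 0.0236). That early call was lost without early Bcl11b WT library 1 (log2 0.44), without early Bcl11b KO library 1 (0.45) or library 2 (0.40), with only the 4 early libraries in the fit (0.44, adjusted p = 0.0704) and after subtraction of background reads (0.34, adjusted p = 0.0926). Late cells were higher than early cells in both KO (log2 1.53 ± 0.13, adjusted p = 1.42e-05) and WT (log2 2.05 ± 0.13, adjusted p = 1.81e-06).

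Il2rb encodes the beta chain that signals for IL-2 and IL-15. It rose in early Gata3 KO cells, in the direction opposite to Il2ra. These libraries had 1862 and 1462 CPM, against 899.9 and 808 CPM in early Gata3 WT, with no overlap (log2 0.96 ± 0.14, adjusted p = 0.000484). In the late cultures, Gata3 KO libraries had 918 and 822 CPM and late Gata3 WT libraries 885 and 822 CPM, which overlapped (log2 0.03 ± 0.14, adjusted p = 0.926). Late Gata3 KO cells were lower than early ones (log2 -0.93 ± 0.14, adjusted p = 0.000982), and the KO effect differed between stages by -0.93 ± 0.19 (adjusted p = 0.0125; -0.75 and adjusted p = 0.0528 without early Gata3 KO library 1). Genes of CD8 T cells and natural killer (NK) cells were also higher in early Gata3 KO. Of 7 such markers 5 were tested and all 5 were higher in early Gata3 KO, where 30.7% of all genes were called. Markers near absent from WT could pass the filter on low values through the KO libraries, so this count adds little to the levels. The 7 summed to 299 to 323 CPM in early Gata3 KO against 8.89 to 13.1 CPM in early Gata3 WT. The T-box factor Eomes made up most of this sum (204 and 207 CPM in KO, against 1.22 and 0.376 CPM in WT), Cd8a had 16.6 and 12.2 CPM against 1.63 and 0.877 CPM, and Ncr1 and Klra8 had 0 reads in all 4 libraries. The CD8 and NK markers did not follow Il2rb in every comparison. In late Gata3 KO 3 of 5 tested were called higher (14% of all genes called), where Il2rb was not. From early to late Bcl11b cells 3 of 3 tested were called lower in KO and 2 of 3 in WT (36.6% and 41.6% of all genes called), where Il2rb was higher. The part of such cells in the Il2rb result was not tested. In bulk RNA fewer or more cells of a type and less or more RNA per cell cannot be told apart. In the Bcl11b experiment Il2rb had 1286 and 1216 CPM in late KO against 897 and 1080.4 CPM in late WT (log2 0.34 ± 0.16, adjusted p = 0.423), and 682 and 572 CPM in early KO against 677 and 751 CPM in early WT (log2 -0.19 ± 0.16, adjusted p = 0.441). Neither difference passed the test, although the late groups did not overlap. Late cells had more Il2rb than early cells in KO (log2 1.00 ± 0.16, adjusted p = 0.00104) and in WT (log2 0.47 ± 0.16, adjusted p = 0.0378), and the difference between these effects did not pass the test (0.53 ± 0.23, adjusted p = 0.238). The WT call was lost in 5 of 8 fits that each left out 1 library: without early WT library 1 (0.40), late WT library 1 (0.57) or 2 (0.32), or either late KO library (0.47 each).

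Il2rg encodes the common gamma chain itself. In Gata3 KO cells its differences from WT were small and did not pass the test. In late Gata3 KO the libraries had 1004 and 1022 CPM, against 853 and 833 CPM in late Gata3 WT (log2 0.26 ± 0.10, adjusted p = 0.108). With the replicate number as a block in edgeR's fit that late difference was called (0.26 ± 0.08, adjusted p = 0.0318). Early Gata3 KO libraries had 875 and 851 CPM, against 743 and 770.5 CPM in early Gata3 WT (log2 0.19 ± 0.10, adjusted p = 0.176). At both stages the KO libraries nonetheless stood above both WT libraries. Among the members, the largest called effect of Bcl11b deletion was on this gene. Early Bcl11b KO libraries had 1116 and 1131 CPM, against 432 and 388 CPM in early Bcl11b WT (log2 1.45 ± 0.15, adjusted p = 0.000293). T cell markers summed to 4110 to 4505 CPM in early Bcl11b KO against 2393 to 2972 CPM in early Bcl11b WT. Of 7 tested 3 were called higher, where 21.0% of all genes were called, and their median log2 fold change was 0.35. The part of these markers in the early Il2rg difference was not tested. Late Bcl11b KO libraries had 1425 and 1212 CPM, against 994 and 928 CPM in late Bcl11b WT, without overlap and short of the threshold in edgeR's test (log2 0.46 ± 0.15, adjusted p = 0.173). DESeq2 gave 0.47 for that late difference with an adjusted p of 0.045. Macrophage and dendritic cell markers summed to 58.1 to 62.5 CPM in late Bcl11b KO against 16.2 to 18.7 CPM in late Bcl11b WT, with 1 of 5 tested called higher. B cell markers summed to 20.1 to 31.4 CPM against 4.40 to 5.18 CPM, with 2 of 3 called higher. T cell markers summed to 5771 to 6256 CPM against 3295 to 3600 CPM, with 2 of 7 called higher. Of all genes 2.22% were called there. Median log2 fold changes were 2.03 for the macrophage and dendritic, 2.13 for the B cell and 0.14 for the T cell markers tested, so the T cell sum does not describe every marker. The part of these markers in the Il2rg difference was not tested. Il2rg was higher in late than in early Bcl11b WT (log2 1.23 ± 0.15, adjusted p = 0.000154), and the KO effect differed between stages by -0.997 ± 0.21 (adjusted p = 0.0338). Leaving out any 1 library other than early Bcl11b WT library 1 ended the call of the stage difference (-1.12 to -0.87, adjusted p up to 0.199). The early WT group in 3 of these comparisons is the one whose libraries stood apart, and its level of 410.0 ± 31.5 CPM (SD, n = 2) was the lowest of the 8 groups.

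**Figure D2:**
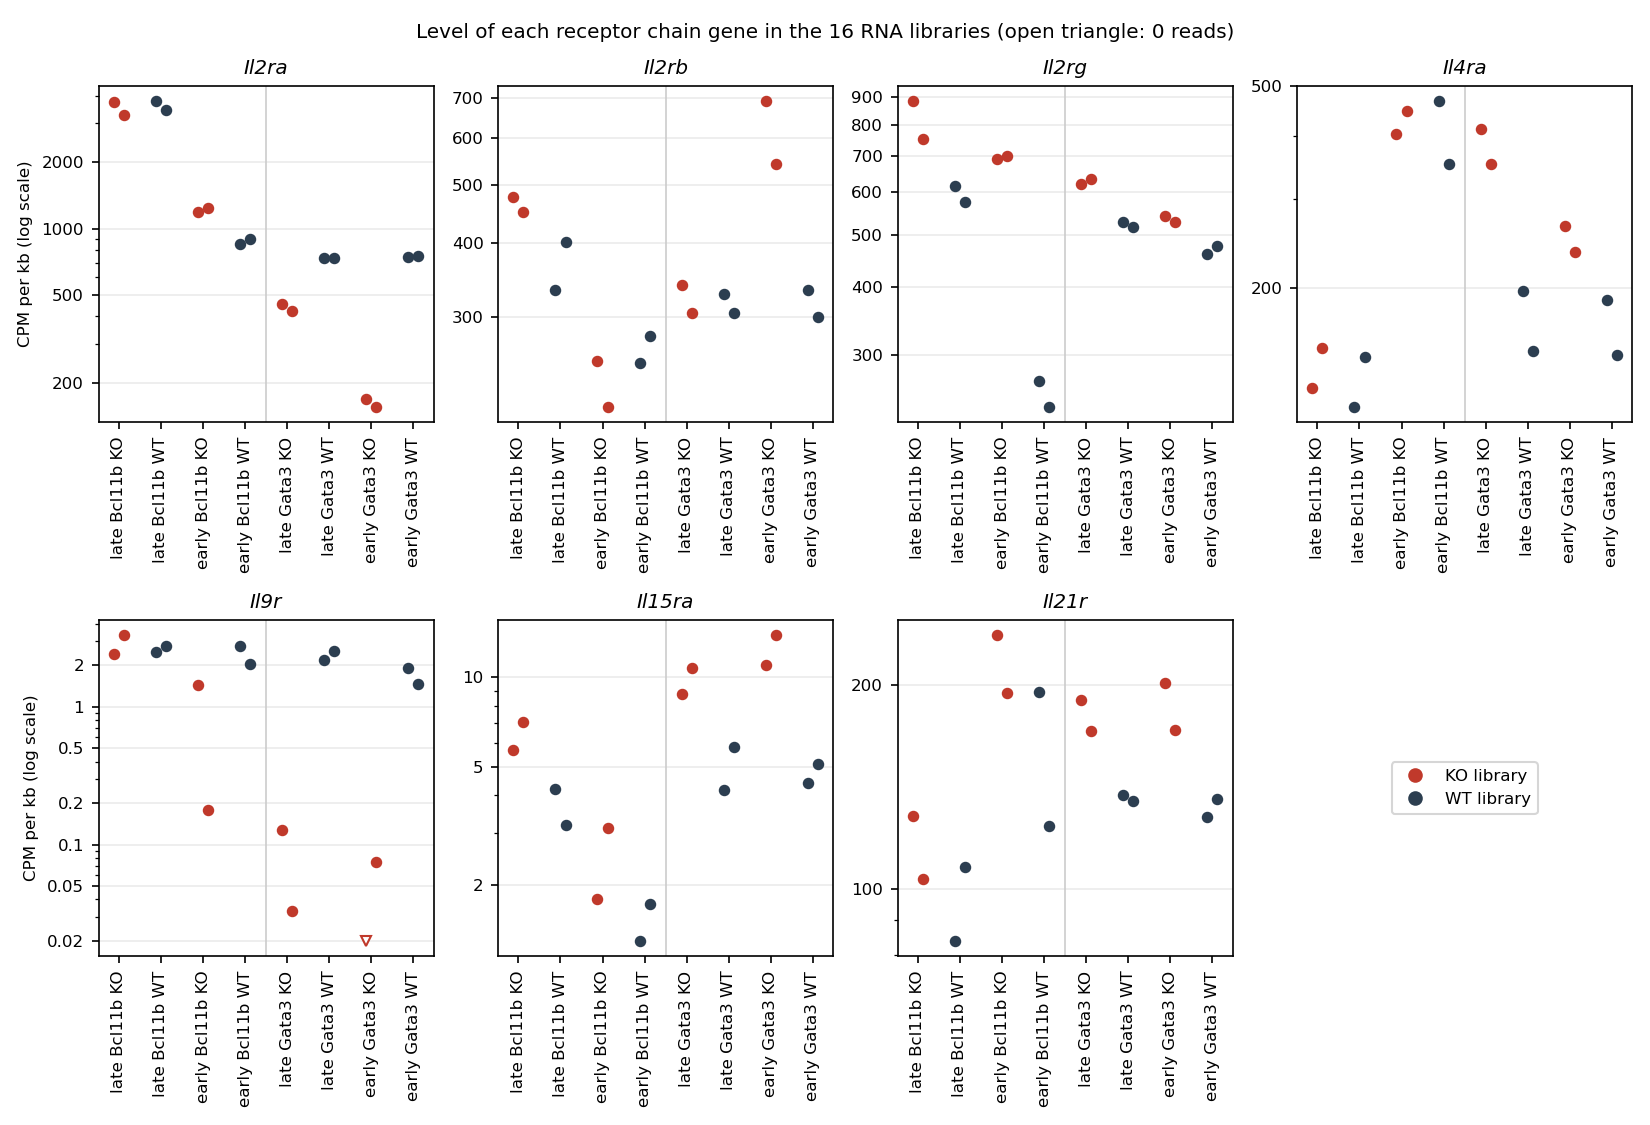
Level of each receptor chain gene in CPM per kb of transcript (vertical axis, log scale, 1 panel per gene) in each of the 16 RNA libraries, by group along the horizontal axis. Points are single libraries, and the open triangle marks a library with 0 reads. Il2ra is highest in the late Bcl11b groups (3518 CPM per kb in KO and 3606 in WT on average), and the Il9r points of both Gata3 KO groups lie below all WT points.

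Il15ra, the alpha chain that presents IL-15, was a low-abundance transcript that rose in Gata3 KO cells at both stages. Early Gata3 KO libraries had 15.9 and 20.03 CPM (147 and 175 reads), against 6.37 and 7.39 CPM (47 and 59 reads) in early Gata3 WT (log2 1.38 ± 0.24, adjusted p = 0.00161). Late Gata3 KO libraries had 12.7 and 15.5 CPM, against 6.07 and 8.47 CPM in late Gata3 WT (log2 0.97 ± 0.24, adjusted p = 0.0241). Groups did not overlap at either stage, and the late call was lost without late Gata3 WT library 1 (0.74, adjusted p = 0.158) or late Gata3 KO library 2 (0.81, adjusted p = 0.123). The CD8 and NK markers also stood higher in late Gata3 KO, at 31.9 to 32.3 CPM against 11.8 to 13.2 CPM, and their part in the Il15ra result was not tested. Late Bcl11b KO libraries had 8.22 and 10.2 CPM, against 6.09 and 4.62 CPM in late Bcl11b WT (log2 0.78 ± 0.58, adjusted p = 0.714). Early Bcl11b KO libraries had 25 and 41 reads (2.61 and 4.52 CPM), against 9 and 12 reads (1.88 and 2.51 CPM) in early Bcl11b WT (log2 0.69 ± 0.63, adjusted p = 0.472). The background read rate of those WT libraries would place 5.48 and 7.06 reads on a transcript of this length, beside the 9 and 12 counted. On the deposited RPKM limma called this difference, at 0.64 with a pseudocount of 1 (adjusted p = 0.0384) and 1.51 with 0.1 (adjusted p = 0.0135). With a pseudocount of 1 the value lay below the median of all genes in this comparison, which is given with the JAK and STAT genes.

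Il4ra, the chain that binds IL-4 and activates STAT6, rose in Gata3 KO cells at both stages. Late Gata3 KO libraries had 2099 and 1789 CPM, against 1003 and 763 CPM in late Gata3 WT (log2 1.14 ± 0.17, adjusted p = 0.00197). Early Gata3 KO libraries had 1351 and 1198 CPM, against 966 and 751 CPM in early Gata3 WT (log2 0.57 ± 0.17, adjusted p = 0.0285). The groups did not overlap at either stage. The early call was lost without early Gata3 WT library 2 (0.40), early Gata3 KO library 1 (0.48) or library 2 (0.67). Late Gata3 KO cells had more Il4ra than early ones (log2 0.61 ± 0.17, adjusted p = 0.0266), a call lost without early Gata3 KO library 1 (0.70) or 2 (0.51) or late Gata3 KO library 1 (0.47). The KO effect on Il4ra was not called as different between stages (0.57 ± 0.24, adjusted p = 0.164). With the replicate number as a block in edgeR's fit that stage difference was called (0.57 ± 0.12, adjusted p = 0.00468). Nothing says that a number marks a shared animal or day. Bcl11b deletion left overlapping groups: 648 and 775 CPM in late KO against 593 and 746 CPM in late WT (log2 0.09 ± 0.19, adjusted p = 0.952), and 2052 and 2278 CPM in early KO against 2381 and 1790.2 CPM in early WT (log2 0.05 ± 0.18, adjusted p = 0.867). The stage difference was large, with late below early in KO (log2 -1.61 ± 0.19, adjusted p = 0.000147) and in WT (log2 -1.64 ± 0.19, adjusted p = 0.000108). The WT difference was -0.17 and not called on log2(deposited RPKM + 1), where the median of all genes in that comparison lay at 1.04. B cell markers, 5 genes, fell alongside, at 20.1 to 31.4 CPM in late KO against 96.1 to 131 CPM in early KO and 4.40 to 5.18 CPM in late WT against 86.8 to 102 CPM in early WT. Their part in the Il4ra difference was not tested. In the Gata3 experiment the same markers summed to at most 2.03 CPM in any library.

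Il9r, the private chain of the IL-9 receptor, was nearly absent from Gata3 KO cells. Early Gata3 KO libraries had 0 and 2 reads (0 and 0.229 CPM), against 44 and 36 reads (5.96 and 4.51 CPM) in early Gata3 WT. Late Gata3 KO libraries had 2 and 1 reads (0.391 and 0.101 CPM), against 65 and 73 reads (6.80 and 7.82 CPM) in late Gata3 WT. Summed over each group the ratio was 46.8-fold lower in early KO (95% counting interval 12.5 to 393) and 36.5-fold lower in late KO (12.2 to 179). These intervals cover counting error only. Adjusted p-values in edgeR's test were 0.000178 and 0.000544, but Il9r passed the filter through the WT groups only, so a gene kept this way had to differ, and the tests add little to the reads. The files list 2 Il9r transcripts with the same 772 reads, and the longer was used. Late Bcl11b KO libraries had 104 and 97 reads (7.43 and 10.2 CPM), against 110 and 119 reads (7.70 and 8.59 CPM) in late Bcl11b WT (log2 0.11 ± 0.75, adjusted p = 0.993). The early Bcl11b KO libraries disagreed, with 43 and 5 reads (4.48 and 0.551 CPM), against 41 and 30 reads (8.59 and 6.29 CPM) in early Bcl11b WT (log2 -1.55 ± 0.81, adjusted p = 0.199). Without early Bcl11b KO library 1 the value was -3.78 with an adjusted p of 0.0118, so library 1 decides this call, and the background rate would place 11.6 and 15.0 reads on this transcript in the early WT libraries.

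Il21r, the receptor chain for IL-21, was modestly higher in Gata3 KO cells. Early Gata3 KO libraries had 524 and 448 CPM, against 333 and 354 CPM in early Gata3 WT (log2 0.50 ± 0.12, adjusted p = 0.00894). Late Gata3 KO libraries had 495 and 446 CPM, against 359 and 352 CPM in late Gata3 WT (log2 0.40 ± 0.12, adjusted p = 0.0470). KO and WT did not overlap at either stage. The late call stood just inside the threshold and was lost whichever of the 8 libraries was left out (0.32 to 0.48, adjusted p from 0.0532 to 0.207), and the early call was lost without early Gata3 WT library 1 (0.46) or early Gata3 KO library 1 (0.38). After Bcl11b deletion KO and WT differed by less than the test could call, with 334 and 269.9 CPM in late KO against 219 and 281 CPM in late WT (log2 0.27 ± 0.24, adjusted p = 0.786), and 617 and 508 CPM in early KO against 509 and 323 CPM in early WT (log2 0.44 ± 0.24, adjusted p = 0.218). Without early Bcl11b WT library 1 the early value was 0.80 with an adjusted p of 0.0442. Late cells were below early cells in KO (log2 -0.90 ± 0.24, adjusted p = 0.0141; -0.70 without early KO library 1 and -0.75 without late KO library 2, both no longer called) and in WT (log2 -0.73 ± 0.24, adjusted p = 0.0301; -0.37 without early WT library 1 and -0.59 without late WT library 1, both no longer called). On log2(deposited RPKM + 1) the WT difference turned to 0.73, below the median of 1.04 over all genes on that scale. The B cell markers described with Il4ra fell in both of these comparisons, and CD8 and NK markers stood at 16.4 to 17.1 CPM in late KO against 95.6 to 109 CPM in early KO and 10.97 to 20.7 CPM in late WT against 52.2 to 77.5 CPM in early WT. Their part in the Il21r difference was not tested.

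Between stages the 2 experiments differed in how many members moved. In late against early Gata3 WT 0 of 7 were called by edgeR, as were 0 of the 10601 genes (0% called, with 128 genes and 0 members at an unadjusted p below 0.05). DESeq2 and limma on log2(RPKM + 1) also called 0 genes, and limma on log2(RPKM + 0.1) called 1. Late and early Gata3 WT libraries with the same number were closer to each other than the libraries within either group, as given above. Nothing states whether these WT stages came from separate cultures, so 0 calls need not mean that stage had no effect. The same WT libraries enter the stage difference of the Gata3 KO effect. In late against early Gata3 KO 2 members were higher and 1 lower, with 24.5% of genes called. The KO effect differed between stages for 2 members, Il2ra and Il2rb, with 12.2% of genes called. With the replicate number as a block Il2rg joined the late against early Gata3 KO calls, and Il4ra joined those of the stage difference. In the Bcl11b experiment 2 members were higher and 2 lower in late than in early KO, with 36.6% of genes called, and 3 were higher and 2 lower in late than in early WT, with 41.6%. The Bcl11b KO effect differed between stages for 1 member, Il2rg, with 3.24% of genes called.

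Per kb of transcript, Il2ra stood first in 6 of the 8 groups, and the Gata3 KO groups were the exception. In early Gata3 KO it came after 4 others, at 162 ± 9.67 CPM per kb (SD, n = 2), below Il2rb (616 ± 105), Il2rg (535 ± 10.9), Il4ra (250.1 ± 21.2) and Il21r (186 ± 20.7), where the Il2rb and Il2rg libraries overlapped. In early Gata3 WT the order was Il2ra (748 ± 6.87 CPM per kb), Il2rg (469 ± 12.2), Il2rb (317 ± 24.0), Il4ra (169 ± 29.9) and Il21r (132 ± 5.78), with no overlap between neighbours. Late Gata3 KO put Il2rg first (628 ± 7.94 CPM per kb), ahead of Il2ra (438 ± 22.3), Il4ra (382 ± 43.0) and Il2rb (323 ± 25.04), while late Gata3 WT kept the order of early WT. Il15ra and Il9r were the lowest pair in every group. Il15ra stood above Il9r in every group but early Bcl11b WT, at 12.4 ± 2.00 against 0.0371 ± 0.0524 CPM per kb in early Gata3 KO. In late Bcl11b KO Il2ra averaged 3518 ± 327 CPM per kb, against 818 ± 93.3 for Il2rg and 464 ± 18.4 for Il2rb, and Il4ra (140 ± 17.7) and Il21r (116 ± 17.4) overlapped. Across groups, neighbours also overlapped for several genes. The 2 late Bcl11b groups could not be ordered for Il2ra, and for Il4ra the 2 early Bcl11b groups could not, nor could the late and early Gata3 WT groups. For Il21r every neighbouring pair of groups overlapped.

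Of the ligands of these receptors and the other chains, those that could be tested fell in early Gata3 KO cells. The list of 12 such genes was drawn up with earlier results of these data known, and 6 passed the filter in the Gata3 experiment. All 6 were lower in early Gata3 KO (30.7% of all genes called) and 1 in late Gata3 KO (14%), and for 4 the KO effect differed between stages. Genes near absent from early Gata3 KO could pass the filter on low values through the other groups, so these counts add little to the levels. Il4, the Th2 cytokine that Il4ra binds, had 3.14 and 2.17 CPM in early Gata3 KO against 199.7 and 232 CPM in early Gata3 WT (log2 -6.33 ± 0.32, adjusted p = 7.50e-07). In the late cultures Il4 had 96.9 and 155 CPM in KO against 179.9 and 252 CPM in WT, which did not overlap and did not pass the test. Il13 stayed low at both stages, with 2.38 and 1.03 CPM in early KO against 214 and 210.3 CPM in early WT (log2 -6.93 ± 0.23, adjusted p = 1.83e-07), and 5.09 and 5.88 CPM in late KO against 180.2 and 206 CPM in late WT (log2 -5.11 ± 0.20, adjusted p = 2.04e-06). Il21 had 1.62 and 1.14 CPM in early KO against 53.3 and 75.5 CPM in early WT, and Il7r, the chain that binds IL-7, 90.8 and 64.8 CPM against 327 and 274 CPM. Il9 had 0 reads in both early KO libraries, against 13 and 49 reads in early WT. Il13ra1, the partner of Il4ra in the IL-13 receptor, had at most 20 reads in any library and was not tested.

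In early Bcl11b KO 3 of 7 tested ligand and chain genes, Il13, Il9 and Il2, were higher and 0 lower, where 21.0% of all genes were called. Il13 had 182 and 119 CPM in early Bcl11b KO against 7.54 and 5.87 CPM in early Bcl11b WT (log2 4.48 ± 0.29, adjusted p = 2.13e-05). Il9 had 1306 and 1471 reads in early KO against 0 and 2 reads in early WT, and Il2 had 162 and 41 reads against 1 and 2 reads. Both were near absent from early WT and could pass the filter on low values through other libraries, so their calls add little to the reads. Mast cell and basophil markers summed to 42.9 to 45.4 CPM in early Bcl11b KO against 4.19 to 15.9 CPM in early Bcl11b WT. The 1 of these 6 that was tested, the protease gene Cpa3, was higher (log2 4.30). It could pass the same filter through the early KO libraries, so its call adds little to the levels. Fcer1a, Mcpt4, Mcpt8 and Ms4a2 had 0 reads in both early KO libraries, and the part of these markers in the ligand differences was not tested. In late KO only Il9 was called among these, at 13.3 and 7.80 CPM against 3.08 and 1.37 CPM in late WT (log2 2.24 ± 0.47, adjusted p = 0.0363). That call was lost without any 1 of the 4 late libraries (1.78 to 2.96) and without early Bcl11b KO library 2 (2.25). Il13 in late KO was 3208 and 3115 CPM against 1589 and 2191 CPM in late WT and was not called. The early WT libraries that stood apart enter every one of the early values, and their part was not tested.

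**Figure D3:**
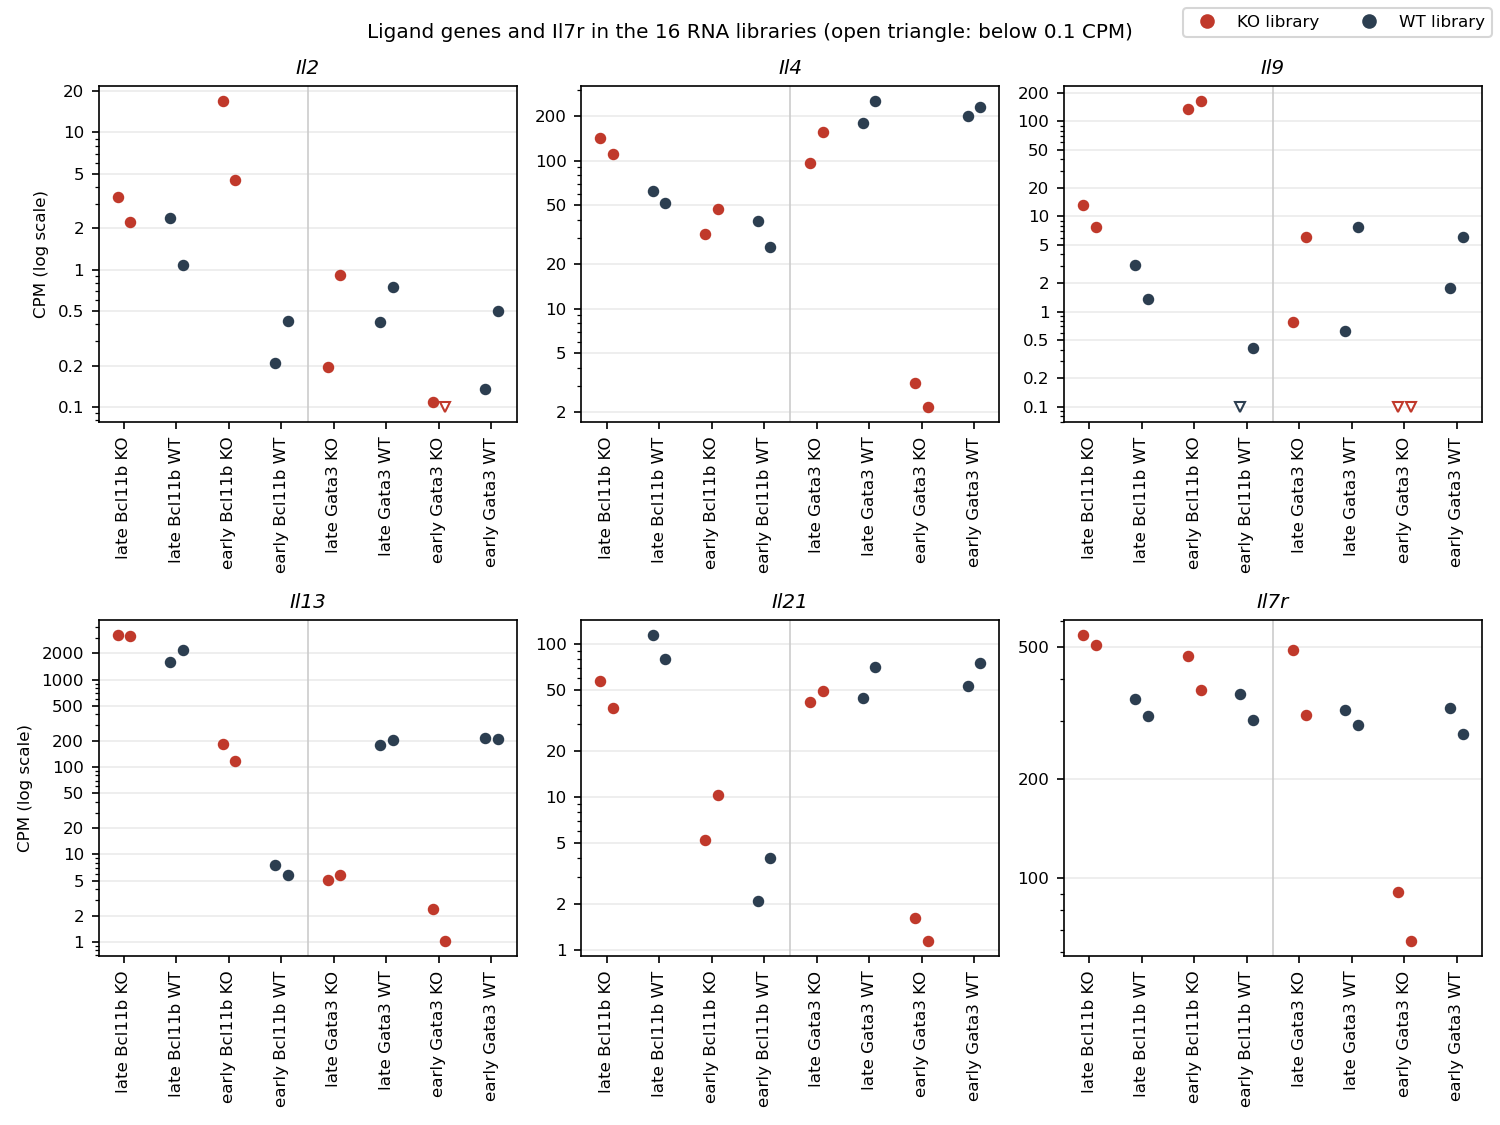
Level of ligand genes of these receptors and of Il7r in CPM (vertical axis, log scale) in each of the 16 RNA libraries, by group along the horizontal axis. Points are single libraries and open triangles mark libraries below 0.1 CPM. Il4 has 29 and 19 reads in early Gata3 KO and 495 and 1532 in late Gata3 KO, while Il13 stays at 5.88 CPM or less in all 4 Gata3 KO libraries.

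All 9 JAK and STAT genes, the kinases and factors downstream of these receptors, were tested. The counts here and for the next 2 lists stand beside the shares of all genes called, 30.7% in early and 14% in late Gata3 KO and 21.0% in early and 2.22% in late Bcl11b KO. In early Gata3 KO 2 were higher, among them Jak1 (log2 0.58 ± 0.11), and 2 lower, Jak2 (-1.44 ± 0.16) and Jak3 (-0.74 ± 0.12), the kinase bound to the gamma chain. In late Gata3 KO 2 were higher, among them Stat5b (0.53 ± 0.11), whose call was lost without late Gata3 WT library 1 (0.47). In early Bcl11b KO 2 were higher, among them Jak1 (0.54 ± 0.16), and Stat5b (-1.46 ± 0.21) and Stat6 (-0.70 ± 0.19), the factor activated by Il4ra, were lower, and 0 of 9 were called in late Bcl11b KO by edgeR, DESeq2 or limma, with 1 at an unadjusted p below 0.05. On log2(deposited RPKM + 1), where the median of all genes lay at 0.86 in that early comparison, Stat5b was -0.28 and Stat6 turned to 0.40, and neither was called. The Jak1 call was lost in 7 of 8 fits that left out 1 library (0.34 to 0.59; it held without early Bcl11b KO library 2), and the Stat6 call in 4 of 8 (-0.61 without early Bcl11b WT library 2, -0.69 without early Bcl11b KO library 1, -0.70 without late Bcl11b KO library 1 or 2). Of 10 negative regulators, 3 were higher and 2 lower in early Gata3 KO and 4 higher and 1 lower in late Gata3 KO. Socs3, an inhibitor of JAK signalling, was lower at both stages (-2.38 ± 0.19 early and -1.32 ± 0.19 late), while Ptpn6, the phosphatase SHP-1, was higher (0.91 ± 0.15 early and 0.98 ± 0.15 late), as was Socs2 in late KO (1.07 ± 0.12). In Bcl11b KO edgeR called 0 of the 10 at either stage, with 2 early and 1 late at an unadjusted p below 0.05, while DESeq2 called 1 early and 0 late, and limma on RPKM 6 early and 0 late.

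Among 17 genes known as STAT5 or STAT6 targets, 16 were tested. In early Gata3 KO 5 were higher and 8 lower. Perforin (Prf1), a cytotoxic granule protein, rose most (log2 6.70 ± 0.32, adjusted p = 5.77e-07). With a difference this large Prf1 could pass the filter on low values through the KO libraries, so its call adds little to the fold change. The part of CD8 and NK cells in the Prf1 difference was not tested. Lif (-4.08 ± 0.31) and Batf (-2.33 ± 0.19) fell, as did Gata3, the deleted gene, which is on this list. In late Gata3 KO 5 were higher, among them Lta (2.00 ± 0.25), and 5 lower, among them Lif (-2.22 ± 0.28) and Osm (-0.999 ± 0.11). In early Bcl11b KO 4 were higher and 0 lower: the survival gene Bcl2l1 (2.74 ± 0.23), the cyclin gene Ccnd2 (1.74 ± 0.19), Pim2 (0.99 ± 0.18) and Myc (0.73 ± 0.23), whose call was lost in 7 of 8 fits that left out 1 library (0.43 to 0.86; it held without early Bcl11b WT library 2). In late Bcl11b KO Pim2 (1.42 ± 0.18) and Lta (1.69 ± 0.30) were higher and the granzyme gene Gzmb (-1.35 ± 0.15) was lower. The calls of Pim2 (1.31 to 1.45) and Lta (1.33 to 1.97) were lost without either late Bcl11b WT library or late Bcl11b KO library 1, and that of Lta also without late Bcl11b KO library 2. Over all 48 genes of these 4 lists, without the members, 10 of 41 tested were higher and 18 lower in early Gata3 KO (68.3% called, against 30.7% of all genes), and 11 higher and 7 lower in late Gata3 KO (43.9%, against 14%). Of 42 tested, 9 were higher and 2 lower in early Bcl11b KO (26.2%, against 21.0%, a share near that of all genes), and 3 higher and 1 lower in late Bcl11b KO (9.52%, against 2.22%). The lists were drawn up with earlier results known, so these shares are descriptions.

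Genes whose levels followed the members were named by Pearson correlation of log2(CPM + 1), centred within each experiment, over the 14 libraries other than the early Bcl11b WT ones. These values are descriptions over libraries that fall into groups and differ in depth, and nothing states which of them share a culture. Nearest to Il2ra were the cytokine gene Il10 (r = 0.990), the phosphatase gene Dusp16 (0.988) and Erc1 (0.985). Closest to Il2rb were Arsb (0.959), the integrin gene Itgal (0.958) and Cd38 (0.925), and closest to Il2rg were Cd4 (0.902), Ctss (0.902) and Tmem43 (0.878). Il4ra was followed by Slc30a2 (0.959), Itgb5 (0.958) and Treml2 (0.9502), and Il21r by Igbp1 (0.964), Unc119 (0.960) and Dym (0.960). For Il15ra these were Ptpn22 (0.942), Rai14 (0.926) and Birc2 (0.919), and for Il9r Zcchc10 (0.971), Hpgds (0.968) and St3gal6 (0.962). With all 16 libraries 2 of the 3 names were the same for Il2ra, Il2rb and Il4ra, 1 for Il2rg and Il21r, and 0 for Il9r and Il15ra. Among the members, Il4ra and Il21r ran most closely together (r = 0.882), followed by Il2ra and Il9r (0.823), while Il2ra and Il21r ran opposite (-0.781).

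In late WT Th2 cells 39 Bcl11b peaks and 53 GATA3 peaks were assigned to the 7 genes by the closest start site, after 5 and 3 that overlapped an input peak were left out. Peak positions are on mm10, and fold enrichments and read numbers are the authors'. Each list comes from 1 library, so there is no replicate check. Il2ra had 10 Bcl11b and 19 GATA3 peaks, Il15ra 12 and 16, Il4ra 8 and 6, Il21r 6 and 5, Il2rb 2 and 4, Il9r 1 and 2, and Il2rg 0 and 1. Among 9985 genes tested in RNA, 0.481% had 10 or more Bcl11b peaks and 3.01% had 10 or more GATA3 peaks, and 50.9% and 53.9% had at least 1. Of the members' peaks 25 of 39 Bcl11b peaks (64.1%) overlapped a GATA3 peak, and 34 of 53 GATA3 peaks (64.2%) overlapped a Bcl11b peak. Over all peaks the shares were 43.5% of 15262 and 25.8% of 27199. These shares count any overlap of at least 1 base, and member Bcl11b peaks were up to 7860 bases long. With peak centres within 200 bases, 10 of the 39 and 10 of the 53 met a peak of the other factor. The share over all peaks by that rule is not given here. Member peaks cluster in a few loci and are not independent, so no test is given.

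Most of these peaks were modest. Bcl11b peaks of the members had fold enrichments between 1.31 and 4.58, beside a median of 3.01 over all Bcl11b peaks. GATA3 peaks ranged between 0.96 and 17.62, beside a median of 3.05, and 2 reached 10-fold, as did 5.25% of all GATA3 peaks. The highest lay at the listed Il2rb start, chr15:78494697-78495886, with 17.62-fold enrichment from 139 reads. The Bcl11b peak over this start (7.07-fold) overlapped an input peak and was left out. The Il2rb gene spans chr15:78479256-78511621, so the listed start lies inside it. Near its upstream end a GATA3 peak (chr15:78510498-78511282, 2.43-fold) overlapped a Bcl11b peak (chr15:78510368-78511473, 4.56-fold). The second GATA3 peak to reach 10-fold lay 4003 bases from the listed Il9r start, inside the gene, at chr11:32195795-32196755 (12.28-fold, 86 reads). It overlapped a Bcl11b peak at chr11:32195903-32196805 (3.3-fold). A further GATA3 peak spanned the listed Il9r start, chr11:32199891-32200667 (5.05-fold, 38 reads), and holds the promoter window with 2 GATA matches printed above. Il9r and Il2rb thus carried the strongest GATA3 peaks of the set, and in early Gata3 KO Il9r was lower and Il2rb higher.

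At Il2ra a GATA3 peak (chr2:11641892-11645204, 5.44-fold, 168 reads) and a Bcl11b peak (chr2:11642207-11644695, 2.75-fold, 134 reads) both covered the start, and 12 of 19 GATA3 and 7 of 10 Bcl11b summits lay inside the gene. Il15ra is the next gene along, and 9 of its 16 GATA3 and 6 of its 12 Bcl11b peaks had summits inside Il2ra, so closeness to a start site divides 1 cluster between both names. Il4ra and Il21r are neighbours as well. At the Il4ra start a Bcl11b peak (chr7:125550990-125553181, 3.89-fold, 102 reads) covered a GATA3 peak that was barely enriched (chr7:125551687-125552433, 1.07-fold, 18 reads). The longest Bcl11b peak of the set, chr7:125577020-125584879 (4.04-fold, 530 reads), is assigned to Il21r but begins inside the last part of Il4ra, which spans chr7:125552271-125579474, and it overlaps a GATA3 peak at chr7:125577596-125582942 (3.23-fold, 220 reads). Among the peaks used, 0 had a summit inside Il21r itself. A Bcl11b peak over its start, chr7:125602952-125605360 (1.76-fold, 85 reads), overlapped an input peak and was left out. Il2rg had 1 GATA3 peak, chrX:101265980-101266504 (2.74-fold, 15 reads), and 0 Bcl11b peaks.

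**Figure D4:**
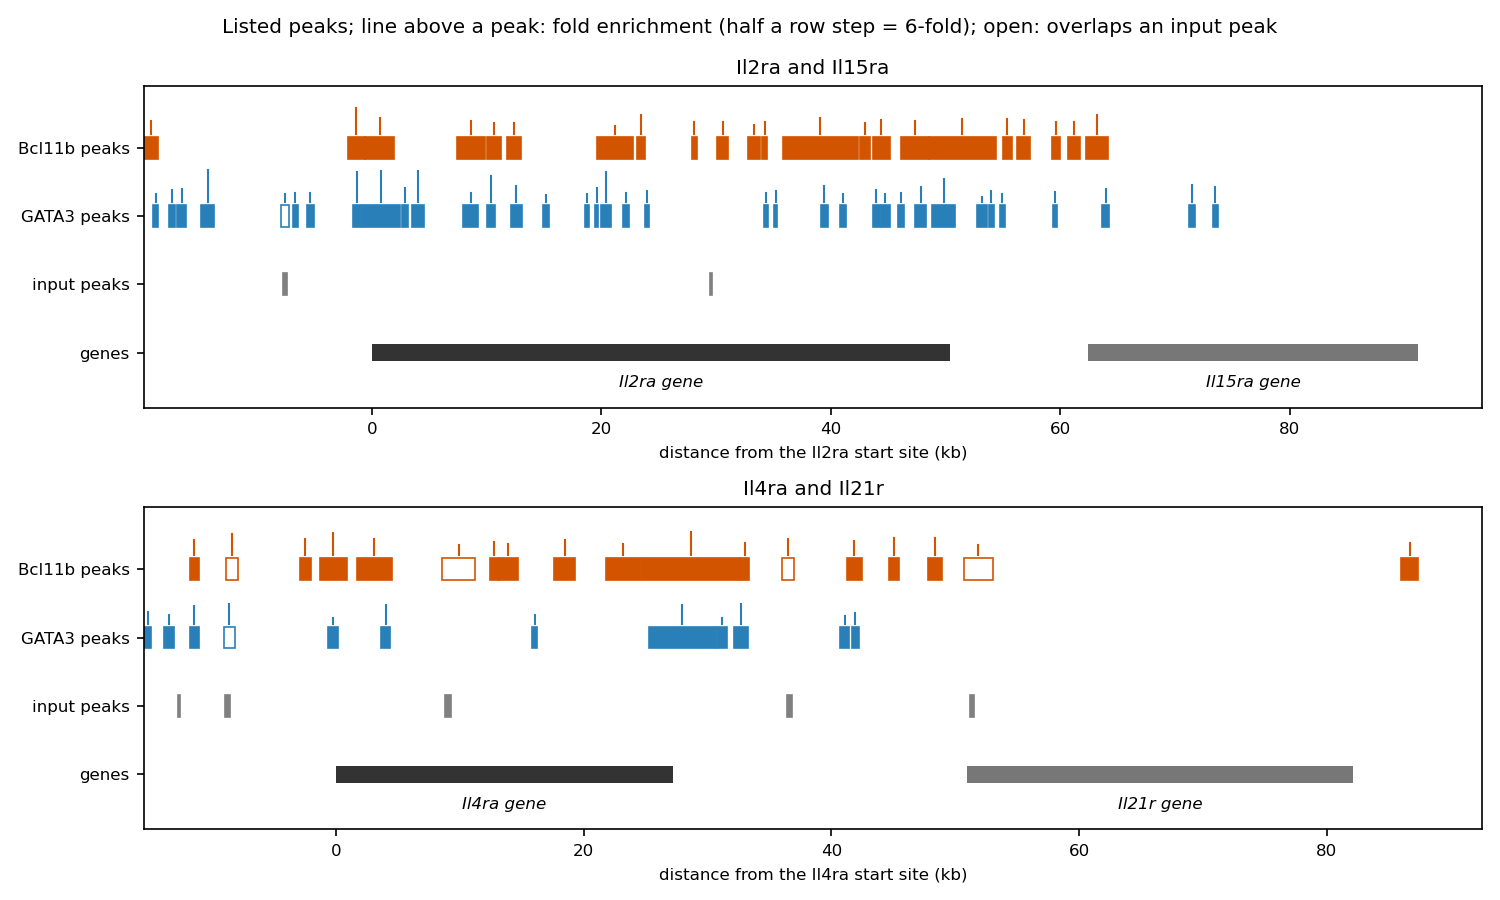
Deposited peaks around Il2ra with Il15ra and around Il4ra with Il21r, by distance in kb from the Il2ra and Il4ra start sites (horizontal axis). Boxes are peaks or genes in rows for Bcl11b, GATA3, input and genes, the line above a peak is its fold enrichment, and open boxes overlap an input peak. Peaks of both factors run through Il2ra toward Il15ra, and the longest peaks of the lower map sit at the end of Il4ra, short of Il21r.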

How the data were processed

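Libraries came from 10 ng of RNeasy-purified RNA amplified by NuGEN Ovation V2 for HiSeq sequencing, per the labels. The deposited tables give, per RefSeq transcript, the authors' raw read counts and RPKM (reads scaled to transcript length and library size). The submitters' processing notes list mm10 and, without roles, MACS 1.4.2, TopHat2 2.0.13, CASAVA 2.18, Novoalign and Bowtie. Which counter and strand were used is not stated. Per the file headers, peak lists hold the fold enrichment, the reads, the FDR in percent and the score (-10 log10 p), all the authors' deposited values.

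Genes were tested where 2 or more of an experiment's 8 libraries reached an RPKM of 1 (10870 genes for Bcl11b, 10601 for Gata3). The 4 groups of an experiment were fitted together in edgeR 4.0.16 (R 4.3.3, TMM, quasi-likelihood F test, Benjamini-Hochberg adjustment over all genes, threshold 0.05), tested on simulated data. CPM use TMM sizes. Pseudocounts for limma 3.58.1 on RPKM were 1 and 0.1, and DESeq2 1.42.0 was another alternative. Intervals for reads are exact 95% ones. Peaks overlapping an input peak by at least 1 base were left out. Other computations used Python 3.11.15 with numpy 2.4.6, pandas 2.3.3 and scipy 1.17.1.

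All 7 members were named, with up to 4 called genes of smallest p per pathway list and comparison, of which some are not reported here, and the 3 most alike genes per member. Ligand genes shown for their levels, Eomes, Cd8a, Cpa3 and the markers at 0 were added after values were seen. The members and lists were chosen with earlier results of these data known. The alternatives were scaling, filter, unit, test, transcript, background subtraction, fitted libraries, replicate block, single libraries, and, added after values were seen, leaving out both early Bcl11b WT libraries.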

Additional observations from a re-analysis of the deposited data

Results flagged for a closer look

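The effect of Gata3 deletion on 2 members and of Bcl11b deletion on 1 member differed between late and early cultures by a test of the difference itself (edgeR's interaction term, Benjamini-Hochberg adjusted over all genes). For Il2ra the difference of the Gata3 KO effect, late minus early, was 1.45 on the log2 scale, with KO lower than WT at both stages. For Il2rb it was -0.93, with KO higher than WT in the early cultures only by this test. Nothing states whether the late and early Gata3 WT libraries behind both values came from separate cultures. For Il2rg the difference of the Bcl11b KO effect was -0.997, and it rests on the early Bcl11b WT libraries, whose part was not tested.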

How the results depend on the processing

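The members' fold changes had 477 recomputed values where the main result was called, of which 421 kept direction and call, 54 lost the call and 2 reversed, and 262 where it was not, of which 19 reversed and 10 became called. The cause of these changes was not tested. Calls in early Bcl11b KO (2) became 6 with limma on RPKM at either pseudocount, 1 with only the libraries compared and 1 after background subtraction, and 1 to 2 with single libraries left out. Late Bcl11b KO (0) became 1 with DESeq2. Late against early Bcl11b WT (5) became 3 with only the libraries compared, and 3 to 5 with single libraries left out. The Bcl11b stage difference (1) became 5 with limma at either pseudocount, 0 after background subtraction, and 0 to 1 with single libraries left out. With single libraries left out, late Gata3 KO (5, Il9r included) ranged between 3 and 4, early Gata3 KO (6, Il9r included) between 4 and 6, and the Gata3 stage difference (2) between 1 and 2. Leaving out both early Bcl11b WT libraries left the late Bcl11b KO calls at 0 and late against early Bcl11b KO at 4.

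Reversed in Bcl11b KO, early: Il2rb 0.0531 unfiltered and 0.94 and 0.96 with limma; Il4ra -0.0752 after background subtraction and -0.18 to 0.27 with single libraries left out; Stat6 0.40 and 0.44, and Bcl11b 0.0469 and 0.0603, with limma. In late Bcl11b KO Il4ra was -0.0925 and -0.0937 with limma, Il9r -0.0463 and -0.0783, and with single libraries left out Il2ra ranged between -0.13 and 0.0592, Il4ra between -0.0478 and 0.27 and Il9r between -0.13 and 0.33. In late Gata3 KO Il2rb was -0.0084 and -0.0085 with limma and -0.0554 to 0.10 with single libraries left out. Il21r in late against early Bcl11b WT was 0.73 and 0.75 with limma.

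Replicate numbers are shared between groups, but only 2 pairs exist and nothing says that a number marks a shared animal or day. With the replicate block late Gata3 KO had 6 member calls (Il2rg joined, 0.26, adjusted p = 0.0318), late against early Gata3 KO 4 (Il2rg joined, 0.23, adjusted p = 0.0429), the Gata3 stage difference 3 (Il4ra joined, 0.57, adjusted p = 0.00468), late against early Bcl11b WT 4 (Il2rb lost, adjusted p = 0.0501), and the other counts did not change. Between pairs of groups, the differences between libraries 1 and 2 correlated across genes by 0.17 to 0.60 in the Gata3 and by -0.08 to 0.34 in the Bcl11b experiment.

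Over all genes, late Bcl11b KO calls (241) were 588 with DESeq2, 146 unfiltered, 89 with limma (0.1), 1583 with only the libraries compared, 150 after background subtraction, 492 without the early WT libraries and 20 to 477 with single libraries left out. The Bcl11b stage difference (352) was 902 with DESeq2, 529 unfiltered, 6054 and 5845 with limma, 204 with the block and 40 to 721 with single libraries left out. Early Bcl11b KO (2288) was 3595 unfiltered, 6889 and 6960 with limma and 1014 with only the libraries compared. Late against early Bcl11b WT (4527) was 7114 unfiltered and 7771 and 7764 with limma, late Gata3 KO (1488) 2270 unfiltered and 2510 with the block, and the Gata3 stage difference (1294) 2077 and 2388. Leaving out single libraries gave 818 to 1481, 694 to 1431 and, for late against early Gata3 KO (2600), 1362 to 2557, early Gata3 KO (3257) 2099 to 3446, and late against early Bcl11b KO (3979) 1969 to 4790 and WT 2475 to 5093. With limma at a pseudocount of 1 the share of calls that were higher was 95.1% (52.1% by edgeR) in early Bcl11b KO, 91.1% (47.3%) in late against early Bcl11b WT, 4.31% (60.2%) for its stage difference, 63.0% (76.3%; 65.0% by DESeq2) in late Bcl11b KO, 47.4% (63.4%) for the Gata3 stage difference and 46.4% (58.2%) in late against early Gata3 KO. Medians of all genes moved to 0.86, 1.04, -1.04 and -0.16 in the first 4, and unfiltered to -0.69, -1.31 and 0.87 in the first 3.

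At a fold enrichment of at least 10, 0 Bcl11b and 2 GATA3 member peaks were left, of which 0 and 1 overlapped the other factor, and with centres within 200 bases 10 and 10 overlapped.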
